A study of Mus musculus with 4 samples.

Results

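The miR-23, miR-27 and miR-24 miRNAs are made from a pair of paralogous clusters, each with a miR-23, a miR-27 and a miR-24 hairpin in that order. The a cluster encodes miR-23a, miR-27a and miR-24-2, and the b cluster encodes miR-23b, miR-27b and miR-24-1. Members were chosen by name: 9 mature arms of these hairpins, of 1907 mature miRNAs listed, of which 4 come only from the a cluster, 4 only from the b cluster, and miR-24-3p from both. They were measured by small RNA-seq in ES cells of the mouse line E14Tg2A and in the epiblast-like aggregates (ELA) generated from them, a model of the primed state that follows naive pluripotency. ES cells (day 0) were kept with 1000 U/mL LIF either in 10% serum ("serum") or in serum-free medium with 1 µM PD0325901 and 3 µM CHIR99021, inhibitors of MEK and GSK3 ("2iL"). ELA were obtained from either kind of ES cell after 2 days in a minimal medium, so the name of the medium of an ELA library refers to its ES cells of origin. Each of the 4 groups (either stage in either medium) had 1 library, made from the pooled RNA of 3 sets of experiments with this single cell line, and no value below has a replicate error.

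Levels are in RPM, the reads of a miRNA scaled to a total of 1000000 reads over all listed miRNAs, so each level is a share of the miRNA reads and not an amount per cell. In pooled cultures, fewer cells with a miRNA and less of it per cell cannot be told apart. The deposited values were whole multiples of the value of 1 read, which gave back between 587363 reads (ELA 2iL) and 8056984 reads (ES serum) per library, a 13.7-fold range of depth. Pluripotency-associated miRNAs of the miR-290 and miR-302 families were present in all libraries (6 of 6 markers listed, 66826 to 142280 RPM in sum). The listed markers of blood (2 of 3, of which miR-451a has a hairpin annotated on the opposite strand, so that its level is not read as low) summed to at most 8.51 RPM, but miR-142a-5p, a blood-lineage miRNA outside the list and named after its values were seen, had 12742 reads in all. Markers of muscle (3 of 3 listed) summed to at most 73.2 RPM, and those of neurons and glia (3 of 4 listed) to between 262 and 424 RPM. miR-122-5p, of liver, had 0 reads. miR-219a-5p, of glia, and miR-126a-3p, the 1 listed marker of 2 for endothelium, also had 0 reads, but both have such an opposite hairpin and, as for miR-24 below, these zeros are not read as low levels. Groups follow the sample titles, which the column names match. A description field in the labels exchanges ES 2iL with ELA serum. Under that field the stage contrast below would become the medium contrast and the medium contrast the stage contrast. The 3 miR-302 markers, of a family known to be higher in primed than in naive cells, had between 14.8 and 27.5 RPM in the library titled ES 2iL and between 7744 and 16726 RPM in that titled ELA serum. They had between 1343 and 2451 RPM in ES serum and between 999 and 2930 RPM in ELA 2iL. By the titles, each of the 3 was thus higher in ELA than in the ES cells of the same medium. By the description field, each would be lower in ELA from serum than in serum ES cells, and lower in ELA from 2iL than in 2iL ES cells.

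A miRNA hairpin is cut by Drosha and Dicer into a duplex, of which 1 arm is usually kept in Argonaute and guides it to mRNAs through the seed, bases 2 to 8 of the mature miRNA. Paralogous miRNAs with the same seed are expected to share most targets, and the output of such a seed is the sum over its paralogs. miR-27 is best known as an inhibitor of adipocyte differentiation through Pparg, and miR-23 and miR-27 have roles in the vascular endothelium. miR-23 also represses glutaminase, and miR-24 represses cell-cycle genes.

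The sequences show which arms of the clusters can be told apart. They are given 5′ to 3′ from RefSeq (GRCm38.p6), with the seed in capitals, and RefSeq gave a sequence for 8 of the 9 members, all but mmu-miR-23b-3p.

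mmu-miR-23a-3p: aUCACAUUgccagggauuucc
mmu-miR-27a-3p: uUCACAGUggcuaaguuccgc
mmu-miR-27b-3p: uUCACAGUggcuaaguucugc
mmu-miR-27a-5p: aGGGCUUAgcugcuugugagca
mmu-miR-27b-5p: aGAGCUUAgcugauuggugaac
mmu-miR-24-3p: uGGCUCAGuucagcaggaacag
mmu-miR-24-2-5p: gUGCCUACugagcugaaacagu
mmu-miR-24-1-5p: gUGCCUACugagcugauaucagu

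The 3p arms of miR-27a and miR-27b have the same seed and differ at 1 of 21 bases, C19U (the base of miR-27a, the position from the 5′ end, the base of miR-27b). No other listed miRNA with a RefSeq sequence had their seed. Their 5p arms shared 14 of 22 bases, and 1 of the 8 differences, G3A, falls in the seed, so the 5p arms of the paralogs have different seeds while the 3p arms do not. A read of the 3p arm can be assigned to 1 paralog only through that single base. The mismatches allowed in mapping are not given in the sources used here, and the split of miR-27-3p is uncertain to that extent. Without a sequence for miR-23b-3p, the bases that separate it from miR-23a-3p were not compared. Whether the split of miR-23-3p has the same limit was therefore not assessed. The seeds of miR-24-2-5p and miR-24-1-5p were identical. The seed of miR-24-3p was also that of miR-5124b, miR-6369, miR-6410 and miR-6413, which had 0 reads in every library.

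The hairpins lie within 404 bp in the a cluster and 804 bp in the b cluster (mm9, the build of the files). Mir23a (chr8:86732417-86732491), Mir27a (chr8:86732571-86732657) and Mir24-2 (chr8:86732714-86732820) are on the plus strand of an intergenic stretch, with Zswim4 1756 bp away towards higher coordinates and Nanos3 31965 bp away towards lower ones. Mir23b (chr13:63401780-63401876), Mir27b (chr13:63402008-63402104) and Mir24-1 (chr13:63402516-63402583) lie in an intron of the protein-coding gene 2010111I01Rik, on its strand. In RefSeq each miR-24 hairpin overlaps a Mir3074 hairpin on the opposite strand, as the map of the hairpins shows.

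**Figure D1:**
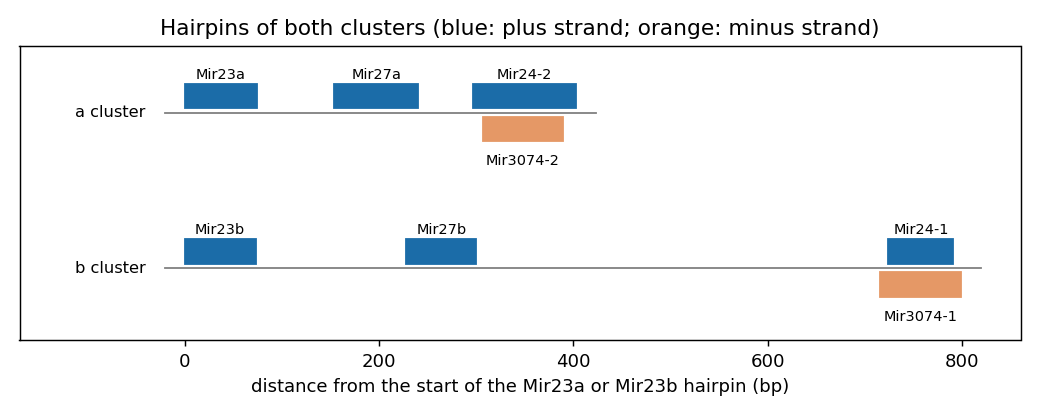
Map of both clusters to scale, with the distance in bp from the start of the Mir23a or Mir23b hairpin (RefSeq, GRCm38.p6) on the x axis. Boxes above the line are hairpins on the plus strand and boxes below it hairpins on the minus strand: a Mir3074 hairpin faces each miR-24 hairpin, and none faces a miR-23 or miR-27 hairpin.

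mmu-miR-27b-3p held most of the reads of the miR-23 and miR-27 arms. Its level was 20576 RPM in ES serum, 17171 RPM in ELA serum, 23766 RPM in ES 2iL and 9728 RPM in ELA 2iL, which placed it between rank 9 and rank 15 of all listed miRNAs. It was thus among the abundant miRNAs of all 4 libraries, and lowest in ELA 2iL. Its paralog mmu-miR-27a-3p stood at 1091 RPM in ES serum, 299 RPM in ELA serum, 820 RPM in ES 2iL and 341 RPM in ELA 2iL, so that both ELA libraries were below both ES libraries.

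The miR-23 paralogs were closer to each other. mmu-miR-23a-3p had 250 RPM in ES serum, 40.6 RPM in ELA serum, 321 RPM in ES 2iL and 123 RPM in ELA 2iL, and again both ELA libraries were below both ES libraries. mmu-miR-23b-3p had 296 RPM in ES serum, 222 RPM in ELA serum, 834 RPM in ES 2iL and 443 RPM in ELA 2iL. For this arm the stages overlapped, since ELA 2iL was above ES serum.

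The 5p arms of miR-27 were present at low levels. mmu-miR-27a-5p had 59.2 RPM in ES serum, 11.8 RPM in ELA serum, 21.3 RPM in ES 2iL and 17.0 RPM in ELA 2iL, the last from 10 reads. mmu-miR-27b-5p, one of the miRNAs that the study transfected into cells, had 91.5 RPM in ES serum, 84.2 RPM in ELA serum, 206 RPM in ES 2iL and 68.1 RPM in ELA 2iL. Both ELA libraries were below both ES libraries for each of these arms, although miR-27b-5p in ELA serum was close to ES serum. Of the 5 members whose log2(RPM + 1) averaged 5 or more, 4 had both ELA libraries below both ES libraries by RPM, all but miR-23b-3p. Of all 302 miRNAs at such levels, 19.9% did. The count of members depended on the scaling. Against ES serum (log2), miR-27b-3p was at -0.23 in ELA serum and -0.37 in ES 2iL with TMM scaling. With DESeq2 size factors these were -0.06 and -0.20, so its stages overlapped under both. With DESeq2 size factors, miR-27b-5p was also 0.08 higher in ELA serum than in ES serum. The other arms of the miR-23 hairpins were nearly absent: miR-23a-5p had at most 2 reads in a library and miR-23b-5p at most 18.

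**Figure D2:**
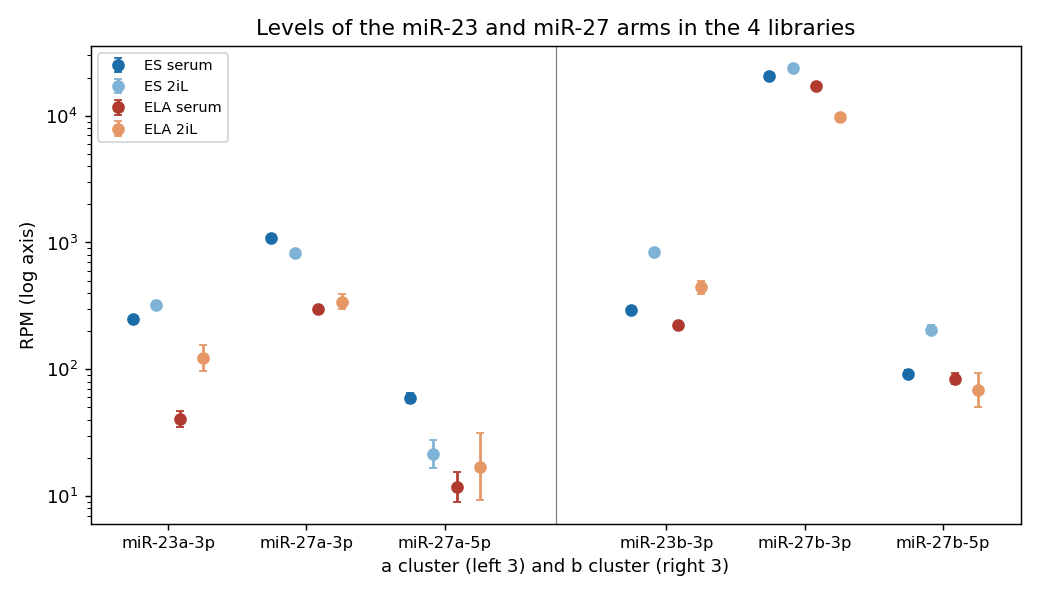
Level of the 6 members with more than 5 reads in all (y axis, RPM, log scale), for the a cluster on the left and the b cluster on the right. Each point is 1 library and each bar its Wilson 95% interval, which covers counting error only: miR-27b-3p lies above all other arms in every library, and the points of the a cluster arms lie lower in ELA than in ES cells.

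At the ES–ELA transition, each of the 6 arms of miR-23-3p and miR-27 was lower by RPM in ELA than in the ES cells of the same medium (with DESeq2 size factors miR-27b-5p from serum was 0.08 higher on the log2 scale), but the clusters differed in the medium in which the difference was larger. From serum ES cells, the summed level of the a cluster was 3.99-fold lower in ELA (0.140% of reads against 0.0351%) and that of the b cluster lower by less, at 83.4% of its ES level (2.10% against 1.75%). From 2iL ES cells, both clusters were 2.42-fold lower in ELA (0.116% against 0.0480% for a, 2.48% against 1.02% for b). The a cluster thus stood far below the b cluster in its ELA to ES ratio from serum, and at the same ratio from 2iL.

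These sums are mostly miR-27-3p reads, which in ES serum were 8787 of 11282 for the a cluster and 165784 of 168905 for the b cluster. The other arms shared with their cluster the medium in which the difference was larger, though not always its size, as the plot of ELA against ES levels shows. From serum, the log2 ratio of ELA over ES was -2.62 for miR-23a-3p (exact 95% interval -2.86 to -2.40, counting error only), -1.87 for miR-27a-3p (-1.95 to -1.78) and -2.32 for miR-27a-5p (-2.77 to -1.90). In the b cluster it was -0.42 for miR-23b-3p (-0.53 to -0.31), -0.26 for miR-27b-3p (-0.27 to -0.25) and -0.12 for miR-27b-5p (-0.30 to 0.06). The serum intervals of the a arms lie wholly below those of the b arms. From 2iL, the log2 ratio was -1.39 for miR-23a-3p (-1.76 to -1.04), -1.27 for miR-27a-3p (-1.48 to -1.06) and -0.32 for miR-27a-5p (-1.46 to 0.65). For the b cluster it was -0.91 for miR-23b-3p (-1.10 to -0.73), -1.29 for miR-27b-3p (-1.33 to -1.25) and -1.59 for miR-27b-5p (-2.09 to -1.13). From 2iL the intervals of the clusters overlapped, and the difference of miR-27a-5p was not detectable at the depth of ELA 2iL. The interval of miR-27b-5p from serum also included 0. The expressed miRNAs are taken as the 302 whose log2(RPM + 1) averaged 5 or more over the libraries. Of these, 50% were lower in ELA from serum and 56.3% from 2iL.

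**Figure D3:**
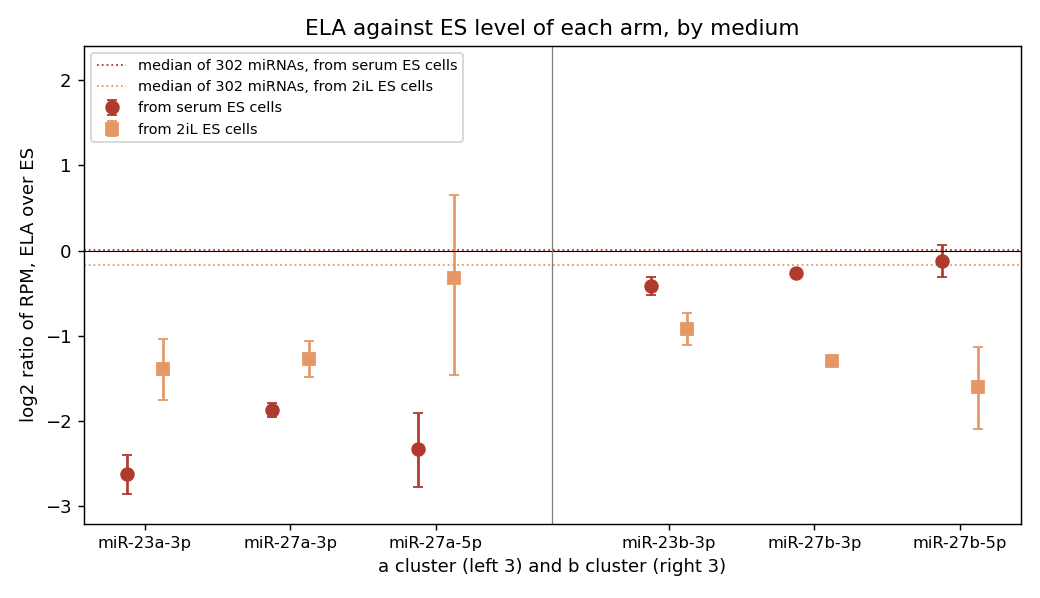
Log2 ratio of RPM in ELA over ES cells (y axis) for each arm, from serum ES cells (circles) and from 2iL ES cells (squares), 1 library against 1, with exact 95% intervals that cover counting error only. Dotted lines are the medians of all 302 expressed miRNAs on the log2(RPM + 1) scale: the 3 arms of the a cluster are lower from serum than from 2iL, and the 3 arms of the b cluster are lower from 2iL than from serum.

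Taking the 2iL ratio minus the serum ratio on the log2(RPM + 1) scale, the difference was 1.21 for miR-23a-3p, 0.60 for miR-27a-3p and 1.92 for miR-27a-5p. It was -0.50 for miR-23b-3p, -1.03 for miR-27b-3p and -1.46 for miR-27b-5p. All 3 arms of the a cluster were thus positive and all 3 of the b cluster negative, and this held under RPM and the 3 other scalings tried (TMM, DESeq2 size factors, totals without the 5 most abundant miRNAs). Among the expressed miRNAs the median of this difference was 0.03 and the quartiles were -0.59 and 0.73. With 1 library per group, a dependence of stage on medium and the variation of single libraries cannot be told apart.

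Set against all miRNAs, the stage difference over both media was tested with limma on log2(RPM + 1), with medium as the other term, in the 599 miRNAs that had at least 10 reads in at least 2 libraries. This included 6 of the 9 members. The estimate (ELA minus ES, log2) was -1.99 ± 0.52 (SE) for miR-23a-3p and -1.57 ± 0.46 for miR-27a-3p, with Benjamini-Hochberg adjusted p-values of 0.153 and 0.183. In the b cluster it was -0.66 ± 0.45 for miR-23b-3p and -0.77 ± 0.50 for miR-27b-3p, with adjusted p-values of 0.425 and 0.395. The 5p arms gave -1.27 ± 0.62 for miR-27a-5p and -0.85 ± 0.55 for miR-27b-5p (adjusted p = 0.292 and 0.401). No member passed 0.05, and no miRNA did (0 of 599, 0%), while 125 had an unadjusted p under 0.05. On the recovered reads, edgeR called 39 miRNAs (6.51% of 599) and DESeq2 50 (8.35%). miR-23a-3p was the only member among the calls, at an adjusted p of 0.0265 with DESeq2 (2.67% of the 599 were called lower) against 0.0567 with edgeR. Over all settings tried, its adjusted p lay between 0.0109 and 0.191. Because the media stand in for replicates here, an arm whose stage difference depends on the medium carries that difference in its error.

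By size alone, a stage difference of at least 1 downwards on the log2 scale was reached by miR-23a-3p and miR-27a-3p, 2 of the 5 members among the expressed miRNAs, against 16.2% of all 302, and none was higher by as much (background 11.6%). miR-27a-5p, at a mean of 4.56, was under the level limit of 5, and the 3 miR-24 arms were far under it. The median stage difference of these 5 members was -0.85, against -0.08 over the 302. From serum the 2 members that reached it were again those of the a cluster (background 15.6%), and from 2iL 4 of 5 did, all but miR-23b-3p (background 23.5%). Mesenchyme-associated miRNAs, led by miR-143-3p, were also lower in ELA in both media in sum, with 5 of 6 markers listed and totals of 3162 RPM in ES serum, 1475 in ELA serum, 4847 in ES 2iL and 1985 in ELA 2iL. The total is nearly all miR-143-3p: from 2iL, miR-199a-5p was higher in ELA (23.8 RPM against 13.01) and so was miR-214-3p (1.70 against 1.08, from 1 and 3 reads). None of these 5 was at 0 in all libraries, and their part in the result was not tested.

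In the pair of libraries on which all label fields agree, ES serum and ELA 2iL, 5 of the 6 arms were lower in ELA 2iL and miR-23b-3p was higher. This pair differs in stage and in medium at once, so the part of each cannot be told apart. It is also the deepest library against the shallowest (8056984 and 587363 reads). Of the expressed miRNAs, 4 of 5 members and 39.7% of all 302 were lower in ELA 2iL than in ES serum.

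Between the media, both miR-23 arms were higher in 2iL by RPM at both stages, whereas the miR-27 arms had no common direction. miR-23b-3p was higher in 2iL than in serum in ES cells (2.82-fold, a log2 ratio with an exact 95% interval of 1.41 to 1.58, counting error only) and in ELA (2.00-fold, log2 interval 0.79 to 1.196). The log2 ratio of miR-23a-3p was 0.36 in ES cells (0.24 to 0.47) and 1.59 in ELA (1.18 to 2.00). Summed over the paralogs, miR-23-3p was 2.11-fold higher in 2iL in ES cells and 2.15-fold higher in ELA. Summed miR-27-3p was 1.13-fold higher in 2iL in ES cells and 1.74-fold lower in ELA. The smaller of these differences depended on the scaling: in ES cells the higher level in 2iL of miR-23a-3p (0.36 on the log2(RPM + 1) scale) became -0.22 with TMM and -0.05 with DESeq2 size factors, and that of miR-27b-3p (0.21) became -0.37 and -0.20. In ELA the difference of miR-27a-3p (0.19) became -0.25 with TMM and -0.29 with DESeq2 size factors. Across the 302 expressed miRNAs the median 2iL minus serum difference was 0.42 by RPM and -0.08 by TMM.

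With limma, the 2iL minus serum estimate over both stages was 1.24 ± 0.45 (SE, log2) for miR-23b-3p and 0.96 ± 0.52 for miR-23a-3p, with adjusted p-values of 0.161 and 0.285. For the 4 miR-27 arms it lay between -0.47 and 0.43 (adjusted p of 0.638 to 0.875). No miRNA passed 0.05 for the medium (0 of 599, 0%), with 176 at an unadjusted p under 0.05, against 64 calls by edgeR (10.7%) and 74 by DESeq2 (12.4%), none of them a member. By size, miR-23b-3p was the 1 member of 5 that was higher in 2iL by at least 1 on the log2 scale (background 23.8%), a limit it missed with TMM (0.74) and with DESeq2 size factors (0.80), and none was lower by as much (background 13.2%).

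A ratio of paralogs within a library does not depend on how libraries are scaled. Of the miR-23-3p reads, the b cluster gave 54.2% in ES serum (Wilson 95% interval 52.7 to 55.6) and 84.5% in the ELA from it (82.3 to 86.5). From 2iL it gave 72.2% in ES cells (70.6 to 73.7) and 78.3% in ELA (73.6 to 82.4). The paralogs were thus close to even in ES serum alone, and miR-23b-3p was in the majority elsewhere. Of the miR-27-3p reads, the b cluster gave 94.97% in ES serum, 98.3% in ELA serum, 96.7% in ES 2iL and 96.6% in ELA 2iL, so the product with the shared seed came almost wholly from the b cluster in every library. Of the miR-27-5p reads it gave 60.7% in ES serum (57.9 to 63.4) and 87.7% in the ELA from it (84.2 to 90.5), and from 2iL 90.6% in ES cells (88.1 to 92.6) and 80.0% in ELA (67.0 to 88.8). For all 3 pairs, ES serum was the library with the lowest b share.

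**Figure D4:**
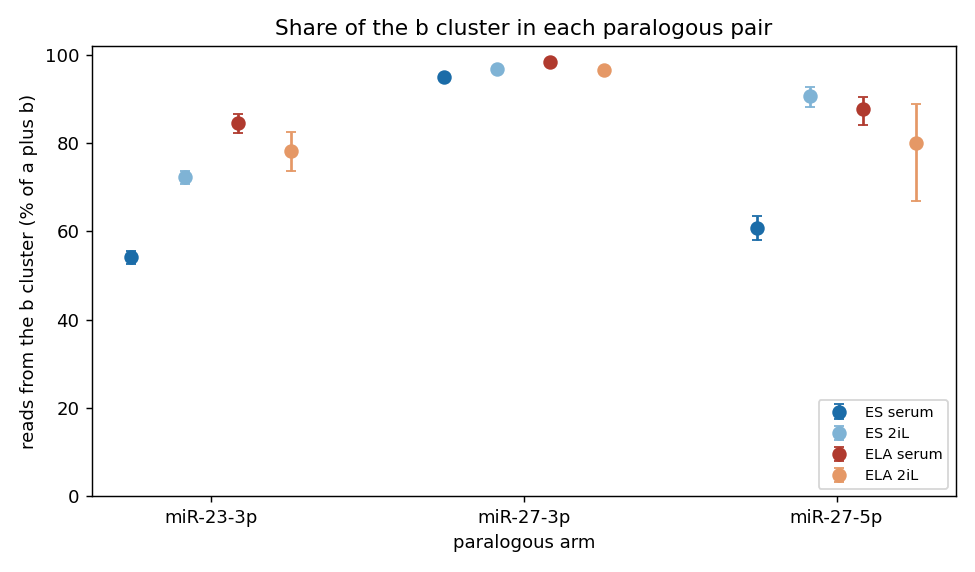
Share of reads that came from the b cluster (y axis, % of a plus b) for each paralogous pair, with 1 point per library and Wilson 95% intervals that cover counting error only. ES serum has the lowest b share for each pair, 54.2% for miR-23-3p, 94.97% for miR-27-3p and 60.7% for miR-27-5p.

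From ES to ELA, the ratio of miR-23a-3p to miR-23b-3p was lower in both media, by a log2 change of -2.21 from serum (exact 95% interval -2.47 to -1.96, counting error only) and -0.47 from 2iL (-0.89 to -0.07). The ratio of miR-27a-3p to miR-27b-3p changed by -1.61 from serum (-1.69 to -1.52) and by 0.02 from 2iL (-0.20 to 0.23). For the 5p arms of miR-27 it was -2.20 from serum (-2.69 to -1.74) and 1.27 from 2iL (0.03 to 2.38). The shift from a to b was present from serum for all 3 pairs, and from 2iL for miR-23-3p alone. Over both media the stage differences of the log2 ratios were -1.33, -0.79 and -0.42, with exact two-sided permutation p-values of 0.333, 0.667 and 1 (0.333 is the smallest that 2 libraries against 2 can give). For the medium the differences were -0.28, 0.20 and -0.90, with exact permutation p-values of 1, 1 and 0.667. This permutation test cannot reach 0.05 for any of these ratios with 4 libraries. The pair of miR-24-2-5p and miR-24-1-5p gave no ratio, as neither had a read.

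Within each hairpin of miR-27 the 3p arm was in excess. The arms are shown in capitals in the hairpins, 5p first, since their ratio sets how much of each seed the hairpin yields.

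Mir27a: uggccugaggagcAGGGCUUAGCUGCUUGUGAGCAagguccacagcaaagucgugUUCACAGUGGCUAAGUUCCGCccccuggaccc
Mir27b: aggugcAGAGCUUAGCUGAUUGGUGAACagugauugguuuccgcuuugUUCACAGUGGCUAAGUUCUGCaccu

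miR-27a-3p had 18.4 times the reads of miR-27a-5p in ES serum, 25.2 times in ELA serum, 38.5 times in ES 2iL and 20 times in ELA 2iL. miR-27b-3p had 225 times the reads of miR-27b-5p in ES serum, 204 times in ELA serum, 116 times in ES 2iL and 143 times in ELA 2iL. The excess of the 3p arm was larger in Mir27b than in Mir27a in each library, and the exact 95% intervals did not overlap. For Mir27b the 5p arm took a larger part in 2iL at both stages, with a log2 change of 5p over 3p of 0.96 in ES cells (0.80 to 1.12) and 0.51 in ELA (0.00 to 0.99). The exact permutation p over the 4 libraries was 0.333 for this medium difference, again the smallest possible, and 1 for the stage difference of -0.07. For Mir27a the differences were 0.30 by stage and -0.36 by medium, with exact permutation p-values of 1 and 0.667.

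The hairpins within a cluster were not represented in a fixed proportion. miR-27b-3p had 69.5 times the reads of miR-23b-3p in ES serum and 77.4 times in ELA serum, against 28.5 times in ES 2iL and 22.0 times in ELA 2iL. miR-27a-3p had 4.35 times the reads of miR-23a-3p in ES serum and 7.35 times in ELA serum, against 2.56 times in ES 2iL and 2.78 times in ELA 2iL. In both clusters miR-27 over miR-23 was thus higher in the serum libraries than in the 2iL libraries, at both stages.

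The miR-24 arms had next to no reads. miR-24-3p, encoded in both clusters, had 4 reads in ES serum, 1 read in ES 2iL and 0 reads in ELA serum and ELA 2iL. miR-24-2-5p and miR-24-1-5p had 0 reads in all libraries. A count of 0 allows up to 3 reads, 0.372 RPM in ES serum and 5.11 RPM in ELA 2iL. These values are not read as low levels of miR-24 here. The mature miR-3074-5p lies on the opposite strand of miR-24-3p at both loci, and 20 bases of the mature sequences overlap. The overlapping bases are in capitals.

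miR-24-3p: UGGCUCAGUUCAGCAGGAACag
miR-3074-5p: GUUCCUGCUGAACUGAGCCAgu

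miR-3074-5p and miR-3074-2-3p also had 0 reads in every library, and miR-3074-1-3p had 23 reads in ES serum, 10 in ELA serum, 20 in ES 2iL and 0 in ELA 2iL. Of 1623 listed miRNAs matched by name to RefSeq hairpins, 72 have a hairpin on the opposite strand, and 50 of these (69.4%) had 0 reads in all 4 libraries. Of the 1551 others, 552 (35.6%) did. miR-24-3p also has more than 1 hairpin of its own. Of 43 such miRNAs without a hairpin on the opposite strand, 8 (18.6%) were at 0. miR-24-3p itself was not at 0 but had 5 reads in all. At most 5 reads were found for 57 of the 72 (79.2%), 851 of the 1551 (54.9%) and 11 of the 43 (25.6%). The 72 include the miR-24 arms, miR-3074-5p and miR-3074-2-3p. Of the 72, 4 were expressed (miR-142a-5p, miR-203-3p, miR-497a-5p and miR-9-5p). Whether reads were assigned by strand, and what was done with reads on overlapping features, is not given in the sources used here, and the part of either in the values of miR-24 was not tested.

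**Figure D5:**
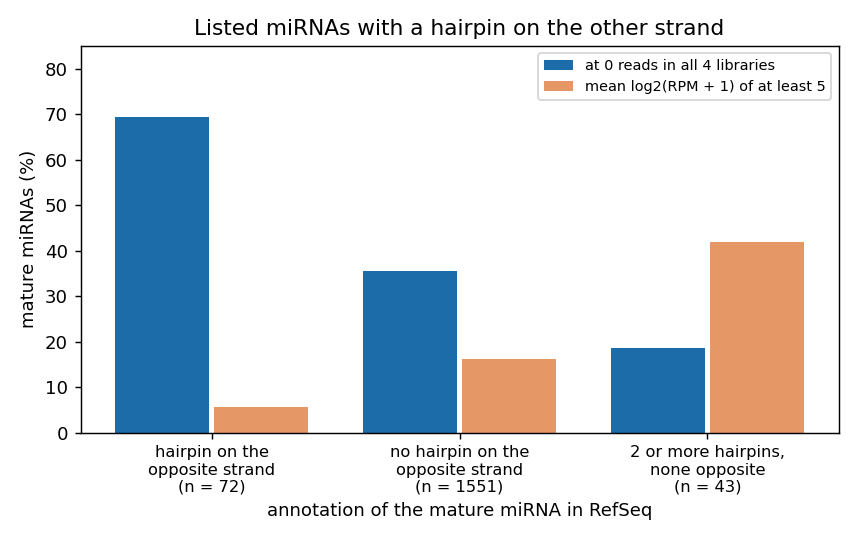
Share of listed miRNAs (y axis, %) with 0 reads in all 4 libraries (blue) and expressed at an average log2(RPM + 1) of 5 or more (orange), by whether RefSeq has a hairpin on the opposite strand. Of the 72 with one, 69.4% were at 0, against 35.6% of the 1551 without; the third class, miRNAs with 2 or more hairpins and none opposite (18.6% at 0), is part of the second.

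The miR-181c and miR-181d hairpins lie 29.5 kb from Mir23a, on the opposite strand of chromosome 8. miR-181c-5p had 3162 RPM in ES serum, 603 RPM in ELA serum, 11821 RPM in ES 2iL and 1983 RPM in ELA 2iL. ES 2iL was highest and ELA serum lowest, as for miR-23a-3p, whereas miR-27a-3p and miR-27a-5p were highest in ES serum. The limma stage estimate was -2.48 ± 0.44 (SE, log2; adjusted p = 0.133) for miR-181c-5p and -2.86 ± 0.51 (adjusted p = 0.133) for miR-181d-5p, both larger in size than that of any a cluster arm, and also short of 0.05. Each passed it in 7 of 8 alternatives, all but the pseudocount of 0.5 RPM, with adjusted p-values of 0.00893 (edgeR) and 0.000333 (DESeq2) for miR-181c-5p and of 0.00651 (edgeR) and 7.5e-05 (DESeq2) for miR-181d-5p.

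The profiles most like each cluster were sought among 294 other expressed miRNAs, by the Euclidean distance between log2(RPM + 1) values of the 4 libraries after subtracting each profile's mean. Nearest to the mean of miR-23a-3p and miR-27a-3p were miR-467c-5p (0.46), miR-669c-5p (0.51) and miR-30c-1-3p (0.66), where the median miRNA was at 2.09. Nearest to the mean of miR-23b-3p and miR-27b-3p were miR-30a-3p (0.15), miR-345-3p (0.17) and miR-3068-3p (0.28), with the median at 1.28. The clusters themselves were 1.35 apart, farther than the median miRNA was from the b cluster and nearer than the median miRNA was to the a cluster. miR-23a-3p and miR-27a-3p were 1.19 apart. miR-23b-3p and miR-27b-3p were 1.57 apart, a distance close to the 1.60 between miR-23a-3p and miR-23b-3p. The paralogs miR-27a-3p and miR-27b-3p were 1.15 apart, nearer than these arms within either cluster. The mean profile of each cluster thus averages arms that differed from each other, by more in the b cluster than in the a cluster.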

How the data were processed

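Small RNA libraries (TruSeq Small RNA, 50-bp single reads) were demultiplexed with CASAVA 1.8. According to the methods, adaptors were trimmed with Trimmomatic, reads mapped to mm9 with Bowtie and summarized over miRBase release 20 with featureCounts; versions, mismatches and strand settings are not given in the sources used here. The authors deposited RPM values, and each column summed to 1000000 over 1907 mature miRNAs. Every value was a whole multiple of 1 read within a relative tolerance of 0.0001 of its number of reads (100%), which gave back the reads. At high counts this tolerance is so wide that the check cannot fail. 0 columns of values were left unused. Members and lists were chosen with earlier results of these data known: all 9 members, the other arms of their hairpins, opposite-strand and nearby miRNAs, those with a shared seed, and the 3 most alike profiles of each cluster.

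Stage and medium were fitted in limma 3.58.1 on log2(RPM + 1) over all 4 libraries, for the 599 miRNAs that reached 10 reads in 2 or more libraries, and p-values were adjusted by Benjamini-Hochberg (threshold 0.05). There was 1 residual degree of freedom per miRNA. The pseudocount of 1 RPM understates differences of low miRNAs. Alternatives were pseudocounts of 0.5 and 5 RPM, no filter, TMM and DESeq2 size factors, totals without the 5 most abundant miRNAs, edgeR 4.0.16 (quasi-likelihood) and DESeq2 1.42.0. Ratios were compared by two-sided exact permutation over the libraries. Shares have Wilson and pairs of libraries exact 95% intervals. Intervals and floors of 3 reads cover counting error only, as reads carry no molecular identifiers.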

Additional observations from a re-analysis of the deposited data

Results flagged for a closer look

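With 1 library per group, several differences had opposite signs in the media or at the stages; none of these was tested. The 2iL minus serum difference (log2) of miR-27a-5p was -1.43 in ES cells and 0.49 in ELA, 1.92 apart. That of miR-27a-3p was -0.41 and 0.19, 0.60 apart by RPM. Both values were negative with TMM (-0.98 and -0.25) and with DESeq2 size factors (-0.81 and -0.29). In the b cluster the order was the opposite, with 1.16 and -0.30 for miR-27b-5p (ELA minus ES -1.46) and 0.21 and -0.82 for miR-27b-3p (-1.03). Both values of miR-27b-3p were negative with TMM (-0.37 and -1.26), DESeq2 size factors (-0.20 and -1.30) and totals without the 5 most abundant miRNAs (-0.07 and -0.78). In ELA the exact 95% intervals (counting error only) of miR-27b-5p (-0.82 to 0.17), miR-27a-5p (-0.62 to 1.52) and miR-27a-3p (-0.03 to 0.41) included 0.

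The ratio of a to b also differed in sign. By medium, the log2 ratio of miR-23a-3p to miR-23b-3p was lower in 2iL in ES cells (-1.14) and higher in ELA (0.58), 1.71 apart. For miR-27-3p these values were -0.62 and 1.01, 1.63 apart, and for miR-27-5p -2.59 and 0.79, 3.38 apart. By stage, the ratio of miR-27a-3p to miR-27b-3p was -1.60 from serum and 0.02 from 2iL, again 1.63 apart, and that of the 5p arms -2.11 and 1.27, again 3.38 apart.

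The 5p to 3p ratio of Mir27a differed between the stages by -0.36 from serum and 0.96 from 2iL, and between the media by -1.02 in ES cells and 0.30 in ELA, 1.32 apart in both cases. That of Mir27b differed between the stages by 0.14 from serum and -0.29 from 2iL (2iL minus serum -0.44). The 5p values of ELA 2iL rest on 10 reads for miR-27a-5p and 40 for miR-27b-5p.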

How the results depend on the processing

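Stage estimates of the 6 tested members kept their sign in all 60 alternatives; 48 of these gave a p-value, 45 of them on the same side of 0.05. miR-23a-3p passed it with no filter (-1.99, adjusted p = 0.0109, limma), with DESeq2 size factors (-1.84, 0.0294) and with the DESeq2 Wald test (-1.80, 0.0265), the 1 member called in each. The number of miRNAs called by limma for stage was 0 as reported and with a pseudocount of 0.5 RPM, 9 with 5 RPM, 28 with TMM, 84 with DESeq2 size factors, 70 with totals without the 5 most abundant miRNAs and 99 of 1202 with no filter; edgeR called 39 and DESeq2 50. For the medium these counts were 0, 0, 38, 55, 112, 94, 130, 64 and 74. With DESeq2 size factors, miR-27b-5p was higher in ELA than in ES cells from serum (0.08).

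Of 60 medium estimates of members, 54 kept their sign. That of miR-27b-5p (0.43) became -0.073 with TMM, -0.011 with DESeq2 size factors and -0.30 in ELA alone. In ELA alone, miR-27a-5p was at 0.49 and miR-27a-3p at 0.19, and in ES cells alone miR-27b-3p was at 0.21. Ratios kept their sign under the other pseudocounts and with part of a read added, and 8 reversed within 1 medium or stage. By stage, these were miR-27-3p (0.022) and miR-27-5p (1.27) from 2iL, and the arm ratios of Mir27a (-0.36) and Mir27b (0.14) from serum. By medium, they were miR-23-3p (0.58), miR-27-5p (0.79) and the arm ratio of Mir27a (0.30) in ELA, and miR-27-3p (-0.62) in ES cells. The cause of these changes was not tested. In the fits, ELA and the ES cells of their medium were already paired through the medium term. The permutation tests of the ratios did not use this pairing. By replicate number, no paired analysis was possible because each group had 1 library and the labels carry no such numbers. The depth of ELA 2iL limits the 5p arms, and the pooling of RNA before sequencing hides the variation between experiments.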
